A study of Mus musculus with 12 samples.

Results

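A set of 6 genes was followed that let one cell restrain a macrophage or that macrophages use to receive that restraint. They were listed by name as ligand and receptor genes of the CD200, CD47 and CD24 systems and taken as rows of the count table, which holds all 6 of them among 53819 entries. Cd200, Cd47 and Cd24a encode the ligands CD200, CD47 and CD24. Cd200r1 encodes the inhibitory CD200 receptor, Cd200r4 its short-tailed relative, and Sirpa the CD47 receptor SIRPα. All 6 passed the filter on low counts and were among the 15698 genes tested.

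The 12 libraries came from cultured stromal preparations of wild-type mice, 3 in each of 4 groups. BM sorted and BM nonsorted were marrow cultures from hind limbs and pelvis, grown on collagen I and taken after their first passage. The sort kept cells with CD51 and Sca-1 that lacked CD31, CD45, Ly6C and F4/80. BAC depleted and BAC nondepleted were bone-associated cells released from hind-limb bone fragments with collagenase I, and the depletion removed cells with CD45, Ly6C or F4/80 on magnetic beads. Per the labels, the medium was alpha MEM with 10% serum and without ascorbic acid, under hypoxia. The sources used here give neither the culture time of the BAC groups nor the age and strain of the mice. The way of purifying, the tissue and its dissociation change together between BM and BAC, so their parts in a difference cannot be told apart.

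CD200 is a surface glycoprotein without signalling motifs of its own. Its receptor CD200R1 sits mainly on myeloid cells and recruits the adaptors DOK2 and DOK1 and the GTPase-activating protein RASA1, which dampen Ras signalling. CD47 is carried by most cells and engages SIRPα on macrophages, whose cytoplasmic motifs bind the phosphatases SHP-1 (Ptpn6) and SHP-2 (Ptpn11) and hold back engulfment. CD24, a small glycosylated protein anchored by a lipid, is bound in mice by Siglec-G (Siglecg), another receptor with inhibitory motifs. CD200R4 has no such motif and signals through the activating adaptor DAP12 (Tyrobp).

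Purified and unpurified groups could be told apart by macrophage content. The summed level of 18 macrophage genes was 13.7 to 16.0 CPM (counts scaled to library sizes normalised by the TMM method) in BM sorted and 5522 to 6262 CPM in BM nonsorted, and 26.0 to 75.6 CPM in BAC depleted and 13791 to 15678 CPM in BAC nondepleted. Aif1 was at 0 in BM sorted, and Ptprc, Itgam, Fcgr1, C1qa, C1qb, Tyrobp, Aif1 and Msr1 were at 0 in BAC depleted. A list of 12 stromal genes summed to 25318 to 54430 CPM over the 12 libraries. Library totals ran from 27937709 to 32164725 counts. BAC depleted 1 stood apart: it held 43406 counts of the X-inactivation RNA Xist and 0 counts of the Y-linked Ddx3y, whereas Xist reached no more than 16 counts and Ddx3y at least 72.7 CPM in each of the remaining 11. Mitochondrial transcripts took 1.82% to 2.62% of the counts in BAC depleted and 1.08% to 1.36% elsewhere. In BAC depleted 3 a single gene, Thbs1, held 2430245 counts. These 3 features fall in the comparisons that use BAC depleted. Each library was left out in turn, but the part of the features as such was not tested.

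The upstream sequences of a ligand higher in BM, a ligand higher in BAC and a receptor are shown because these genes, all on chromosome 16, followed 3 different patterns. RefSeq's promoter table (build GRCm38.p6) held 3 of the 6 genes, and the 250 bases before the start of each are printed 5′ to 3′ on the gene's strand, with GC boxes (GGGCGG, searched on both strands) in capitals. Cd200 lies on the minus strand (chr16:45409054-45409303), Cd47 on the plus strand (chr16:49855404-49855653) and Cd200r4 on the plus strand (chr16:44820478-44820727).
Cd200: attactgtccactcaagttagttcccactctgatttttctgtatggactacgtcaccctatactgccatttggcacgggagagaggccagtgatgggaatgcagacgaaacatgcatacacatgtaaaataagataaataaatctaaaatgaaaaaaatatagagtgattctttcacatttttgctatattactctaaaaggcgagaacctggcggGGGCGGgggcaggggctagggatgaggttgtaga
Cd47: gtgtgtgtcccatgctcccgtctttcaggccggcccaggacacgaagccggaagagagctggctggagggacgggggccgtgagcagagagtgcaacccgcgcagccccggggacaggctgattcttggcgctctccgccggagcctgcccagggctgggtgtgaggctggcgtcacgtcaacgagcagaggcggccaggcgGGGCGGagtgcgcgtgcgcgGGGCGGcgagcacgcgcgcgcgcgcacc
Cd200r4: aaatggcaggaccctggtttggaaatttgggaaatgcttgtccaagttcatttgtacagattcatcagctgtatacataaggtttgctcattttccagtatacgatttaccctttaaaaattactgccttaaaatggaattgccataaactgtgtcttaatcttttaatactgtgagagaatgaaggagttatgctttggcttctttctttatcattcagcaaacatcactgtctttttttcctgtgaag
The Cd47 window held 73.2% G and C, 30 CpG dinucleotides and 2 GC boxes. The Cd200 window held 42.4% G and C, 6 CpG and 1 GC box, and the Cd200r4 window 35.2% G and C, 1 CpG and no GC box. Over 32851 promoter windows of this length in the table, the median was 52.4% G and C (quartiles 45.2% and 61.2%) and 6 CpG (quartiles 2 and 16), and 32.7% held a GC box. Neither the core motif of the myeloid factor PU.1, GAGGAA, which 23.3% of the windows held, nor TATAAA, which 12.4% held, was in any of the 3 windows. No match of one motif overlapped that of another in these windows, and a match or its absence describes these letters only.

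Of the ligands, Cd200 divided the libraries by compartment. Cd200 stood at 32.2, 32.7 and 29.2 CPM in BM sorted and at 20.8, 19.4 and 80.4 CPM in BM nonsorted. It stood at 1.78, 4.67 and 0.417 CPM in BAC depleted and at 0.134, 0.509 and 0.152 CPM in BAC nondepleted. Every BM library lay above every BAC library, BM nonsorted 3 was the highest of all, and the lowest BAC depleted library lay within the range of BAC nondepleted. The BAC nondepleted values rest on 4, 14 and 4 counts, and the lowest BAC depleted value on 10 counts. In order of mean level, BM nonsorted and BM sorted overlapped, BM sorted and BAC depleted did not, and BAC depleted and BAC nondepleted overlapped.

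Cd47 was high everywhere and ordered the other way. It stood at 121, 101 and 97.3 CPM in BM sorted and at 123, 113 and 107 CPM in BM nonsorted. In BAC depleted it stood at 156, 226 and 170 CPM, and in BAC nondepleted at 236, 196 and 185 CPM. The lowest BAC library lay above the highest BM library, and within each compartment the purified and unpurified libraries overlapped. Across the 12 libraries the log2 levels of Cd200 and Cd47 had Pearson's r = -0.855 and Spearman's rho = -0.832, a description in which the libraries of a group share their source and the compartments form separate clusters.

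Cd24a showed no order that held beyond the spread between libraries. It stood at 23.9, 67.7 and 86.3 CPM in BM sorted and at 69.0, 72.3 and 118 CPM in BM nonsorted. It stood at 147, 44.4 and 101 CPM in BAC depleted and at 75.1, 108 and 164 CPM in BAC nondepleted. All 3 neighbouring pairs in the order of means overlapped, and the ratio of the highest to the lowest library was largest in BM sorted, followed by BAC depleted.

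**Figure D1:**
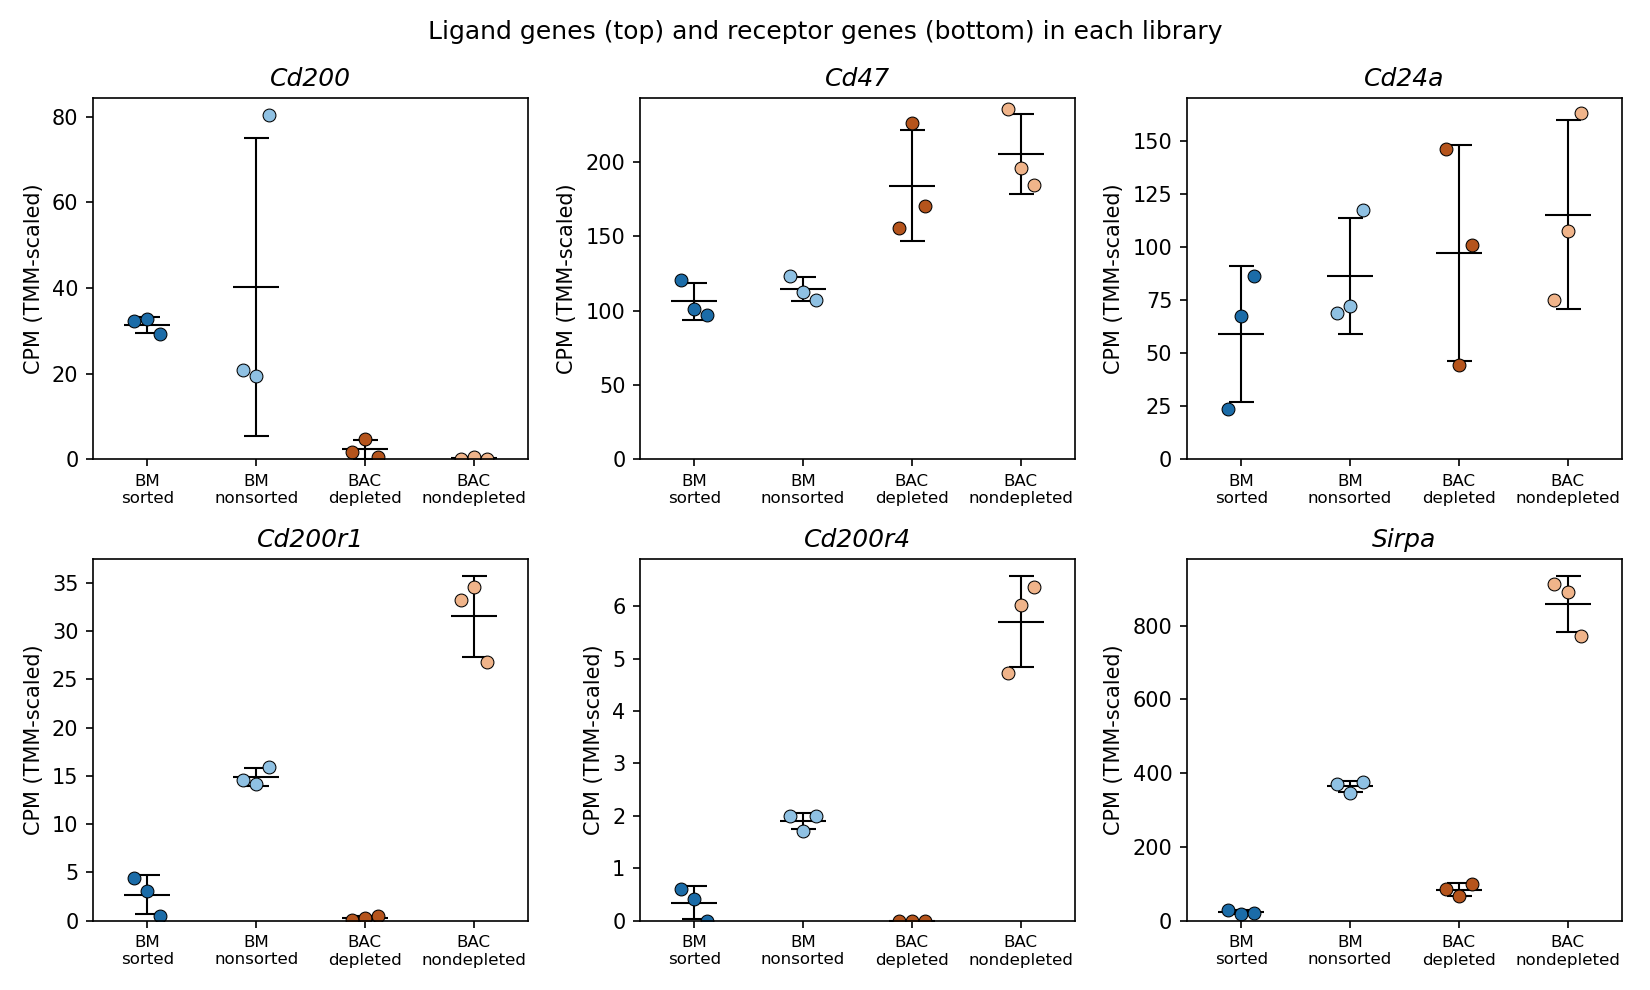
CPM on TMM-scaled library sizes of the 6 genes in each of 12 libraries (points), with the mean (long bar) and SD (short bars, cut at 0) of 3 libraries per group. Cd200 lies highest in the BM groups, Cd47 in the BAC groups, and the 3 receptor genes in the unpurified groups, with BAC nondepleted the highest group for each receptor.

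The receptor genes were ordered by purification first. Sirpa stood at 29.1, 18.8 and 21.4 CPM in BM sorted and at 370, 347 and 375 CPM in BM nonsorted. In BAC depleted it stood at 85.3, 65.3 and 100.4 CPM and in BAC nondepleted at 913, 892 and 773 CPM. The 4 groups of Sirpa did not overlap, and each BAC group lay above its BM counterpart.

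Cd200r1 was lower than Sirpa and lost its order in one place. It stood at 4.43, 3.09 and 0.490 CPM in BM sorted (132, 103 and 16 counts) and at 14.5, 14.1 and 15.9 CPM in BM nonsorted. It stood at 0.0318, 0.212 and 0.458 CPM in BAC depleted (1, 6 and 11 counts) and at 33.2, 34.6 and 26.8 CPM in BAC nondepleted. Unlike Sirpa, its purified BM libraries lay above its purified BAC libraries, although BM sorted 3 and BAC depleted 3 were close.

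Cd200r4 repeated that arrangement at a lower level. It stood at 0.604, 0.419 and 0 CPM in BM sorted (18, 14 and 0 counts) and at 2.0, 1.72 and 1.99 CPM in BM nonsorted. It was at 0 counts in all 3 libraries of BAC depleted, and at 4.73, 6.03 and 6.37 CPM in BAC nondepleted. Over the 12 libraries Cd200r1 and Cd200r4 had Pearson's r = 0.974 and Spearman's rho = 0.923, over libraries that share groups. The near-identical genes of this family may share reads, so the split between them is uncertain, and the same holds for Sirpa and the Sirpb1 genes.

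Per kilobase of merged exon (GENCODE vM21, build GRCm38, for counts made on GRCm39), the genes could be set beside each other. In BM sorted the mean level was 23.0 CPM per kb for Cd24a, 16.9 for Cd47, 9.44 for Cd200, 4.70 for Sirpa, 0.797 for Cd200r1 and 0.167 for Cd200r4. In BM nonsorted Sirpa led with 74.2 CPM per kb, followed by Cd24a with 33.5, Cd47 with 18.2, Cd200 with 12.1, Cd200r1 with 4.44 and Cd200r4 with 0.930. In BAC depleted the means were 37.7 CPM per kb for Cd24a, 29.3 for Cd47, 17.0 for Sirpa, 0.689 for Cd200, 0.0699 for Cd200r1 and 0 for Cd200r4. In BAC nondepleted Sirpa led again with 175 CPM per kb, and Cd200 was last with 0.0798. Ligand genes thus headed both purified groups and a receptor gene headed both unpurified groups on this scale.

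Sorting of the marrow cultures was set against the unsorted cultures to see which side of each pair left with the excluded cells. In the quasi-likelihood test of edgeR, with p-values adjusted by Benjamini-Hochberg over all tested genes, 2 of the 6 genes were called, against 6.23% of all genes. Both were lower in BM sorted, against 6.06% of all genes, and 0 were higher, against 0.166%. At an unadjusted p under 0.05, 3 were lower and 0 higher, and the DESeq2 Wald test called 3 lower and 0 higher. Sirpa averaged 23.1 ± 5.36 CPM in BM sorted and 364 ± 15.2 CPM in BM nonsorted (SD, n = 3 each), a log2 fold change of -3.98 ± 0.21 (SE, adjusted p = 5.26e-07). Cd200r1 averaged 2.67 ± 2.0 CPM in BM sorted and 14.9 ± 0.930 CPM in BM nonsorted, with a log2 fold change of -2.48 ± 0.64 (adjusted p = 0.0472). In bulk RNA, fewer cells of a type and less RNA per cell cannot be told apart.

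Cd200r4 averaged 0.341 ± 0.310 CPM in BM sorted and 1.90 ± 0.161 CPM in BM nonsorted, and its log2 fold change of -2.47 ± 0.82 did not pass (adjusted p = 0.169). The libraries of the 3 receptor genes did not overlap between both groups, as held for 28.7% of all genes, and those of the 3 ligand genes did. Cd47 differed by -0.11 ± 0.16 on the log2 scale (95% interval -0.47 to 0.25, adjusted p = 0.86), Cd24a by -0.54 ± 0.52 (-1.75 to 0.66, adjusted p = 0.746) and Cd200 by -0.36 ± 0.70 (-1.98 to 1.27, adjusted p = 0.904). The call of Cd200r1 was lost without BM sorted 2 (adjusted p = 0.144), BM nonsorted 1 (0.117), 2 (0.105) or 3 (0.118), or BAC nondepleted 1 (0.0813), 2 (0.0866) or 3 (0.0727), with upper quartile scaling (0.058), with no filter on low counts (0.16) and with only both groups in the fit (0.0666). In these settings its log2 fold change stayed between -2.58 and -2.39 while the adjusted p crossed the threshold. Fitting the replicate number as a block in edgeR also lost the call (-2.59, adjusted p = 0.089). Over all fits with 1 library left out the log2 fold change of Cd200r1 ranged from -3.05 to -1.99. Cd200r4 was called without BM sorted 3 (adjusted p = 0.0143) and by the DESeq2 Wald test (0.0116), and the difference of Cd200 turned to 0.64 without BM nonsorted 3 (adjusted p = 0.799).

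Depletion of the bone-associated cells was set against the undepleted cells for the same question. All 3 receptor genes were lower in BAC depleted without overlap of the libraries, against 19.9% of all genes called lower and 46.3% without overlap, and 1 ligand gene, Cd200, was higher, against 17.4%. Sirpa averaged 83.7 ± 17.6 CPM in BAC depleted and 859 ± 75.3 CPM in BAC nondepleted (SD, n = 3 each), a log2 fold change of -3.36 ± 0.20 (edgeR, adjusted p = 9.44e-07). Cd200r1 averaged 0.234 ± 0.214 CPM in BAC depleted and 31.5 ± 4.15 CPM in BAC nondepleted, with a log2 fold change of -7.13 ± 0.84 (adjusted p = 0.000143). Cd200r4 had 0 counts over the 3 BAC depleted libraries and 474 counts in BAC nondepleted, at least 158-fold lower with a floor of 3 counts for the group (adjusted p = 0.000912).

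Cd200 averaged 2.29 ± 2.17 CPM in BAC depleted and 0.265 ± 0.211 CPM in BAC nondepleted, a log2 fold change of 3.11 ± 0.97 (edgeR, adjusted p = 0.0292) between groups whose libraries overlapped. Beside it, 4 of 6 cartilage genes tested were higher in BAC depleted, against 17.4% of all genes, among them Sox9 and Acan (3 to 5 with 1 library left out), and the list summed to 3182 to 27875 CPM in BAC depleted and 647 to 4098 CPM in BAC nondepleted. Of 6 osteoblast genes tested, 4 were higher, Alpl, Dmp1, Ibsp and Sp7 (1 without BAC depleted 1 or BAC nondepleted 2, and 2 without BM sorted 2 or 3, BM nonsorted 2 or BAC nondepleted 1 or 3), while the 7 genes listed summed to 369 to 4528 CPM in BAC depleted and 4183 to 6996 CPM in BAC nondepleted. In BAC nondepleted that sum was mostly Spp1, which averaged 5549 CPM there and 1431 CPM in BAC depleted and did not pass. Of 3 endothelial genes tested, 1 was higher, against 17.4% of all genes, and 1 lower, against 19.9%, while Cdh5 did not pass. The higher one, Tek, held 156 counts over BAC depleted and 3 over BAC nondepleted, and the lower one, Kdr, 3 and 529. The part of these cell types in the level of Cd200 was not tested. Cd47 differed by -0.16 ± 0.16 (95% interval -0.52 to 0.20, adjusted p = 0.443) and Cd24a by -0.25 ± 0.52 (-1.45 to 0.96, adjusted p = 0.735), so neither passed. Without BAC depleted 1, the library with Xist transcripts, the log2 fold changes were -3.37 for Sirpa (adjusted p = 1.27e-05), -6.56 for Cd200r1 (0.000585) and 3.27 for Cd200 (0.0439), and Cd200r4 kept its call (0.00245). The call of Cd200 was lost without BAC depleted 2 (2.08, adjusted p = 0.12), BAC nondepleted 1 (0.096) or 3 (0.0893), with no filter on low counts (0.0923) and with only both groups in the fit (0.0743), and Cd24a turned to 0.10 without BAC depleted 2 and to 0.08 without BAC nondepleted 3.

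**Figure D2:**
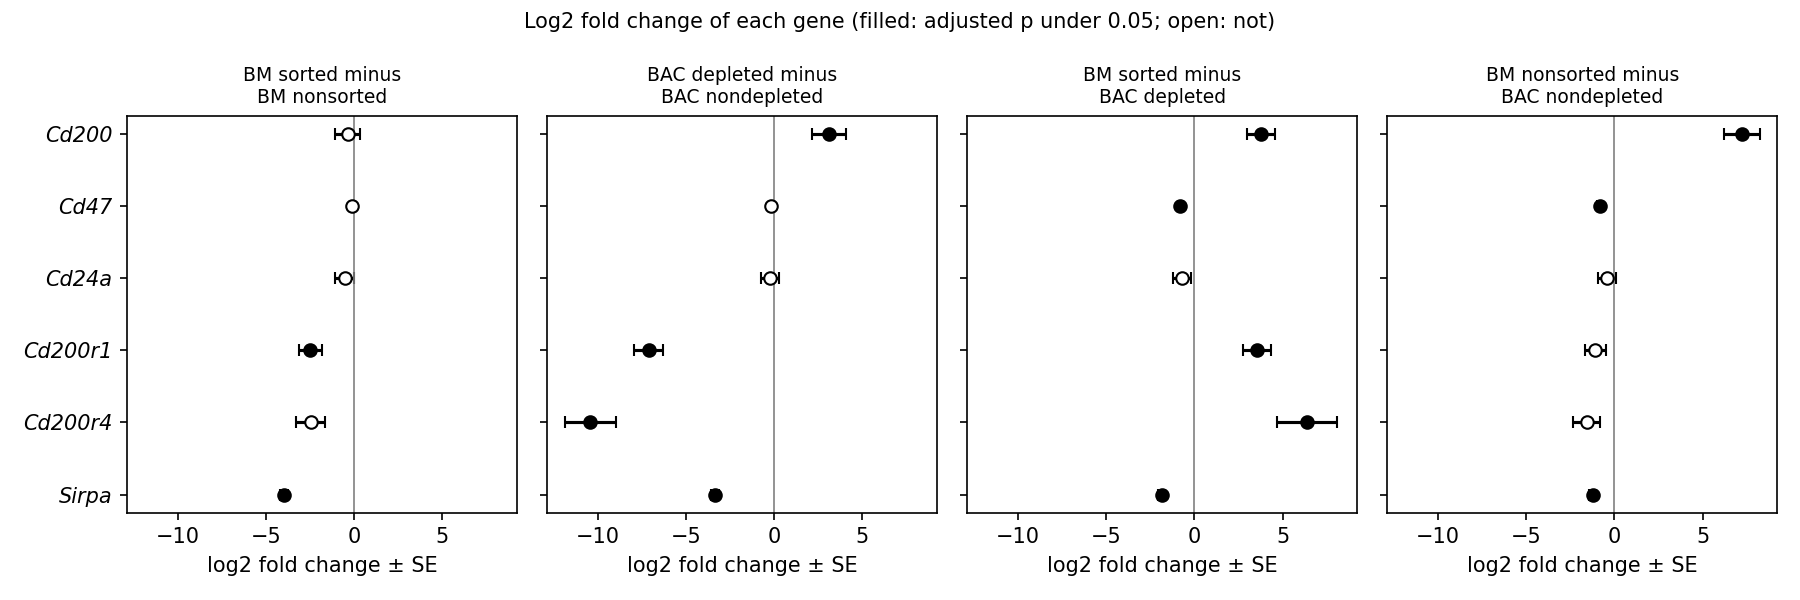
Log2 fold change ± SE of each gene in the 4 comparisons of 2 groups, with filled points at an adjusted p under 0.05 and open points otherwise. Sirpa lies below 0 in every panel, Cd200 lies above 0 in both BM-against-BAC panels, and fitted values of Cd200r4 against BAC depleted, which held 0 counts, depend on the prior count.

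Whether sorting and depletion moved the genes equally was tested as a difference of the 2 effects, BM minus BAC. Of the 6 genes, 2 receptor genes passed, against 8.06% of all genes in either direction and 5.08% in theirs. The log2 difference was 4.65 ± 1.0 for Cd200r1 (edgeR, adjusted p = 0.0232), whose fall was smaller on sorting than on depletion. For Cd200r4 it was 7.95 (adjusted p = 0.0387), a fitted value that rests on the 0 counts in BAC depleted and is no bound. Sirpa differed by -0.62 ± 0.27 (adjusted p = 0.173), Cd200 by -3.46 ± 1.20 (0.105), Cd24a by -0.30 ± 0.74 (0.844) and Cd47 by 0.05 ± 0.22 (0.913), none of which passed.

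Both calls lay close to the threshold and were lost with many libraries left out. Fitting the replicate number as a block in edgeR lost them too (adjusted p = 0.0571 for Cd200r1 and 0.0827 for Cd200r4). Over all fits with 1 library left out, the difference ranged from 4.08 to 5.56 for Cd200r1 and from 7.28 to 8.53 for Cd200r4. Cd200r1 was lost without BM sorted 2 (adjusted p = 0.0547), BM nonsorted 1 (0.0585), 2 (0.0622) or 3 (0.0506), or BAC nondepleted 1 (0.0509) or 2 (0.0545), and with no filter on low counts (0.0522), at log2 differences of 4.55 to 4.73. Cd200r4 was lost without BM sorted 1 (0.0714) or 2 (0.0847), BM nonsorted 1 (0.0814), 2 (0.0886) or 3 (0.076), BAC depleted 1 (0.0521), or BAC nondepleted 1 (0.0717), 2 (0.078) or 3 (0.0689), at fitted differences of 7.28 to 8.07. Cd200 passed without BAC depleted 3 (-3.92, 0.0444) and by the DESeq2 Wald test (0.0167).

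Set against the macrophage genes of the same cultures, the receptor genes kept more of their level than most, apart from Cd200r4 in BAC. Mean CPM in BM sorted, as a percent of that in BM nonsorted, was 17.9% for Cd200r1, 17.9% for Cd200r4 and 6.33% for Sirpa, and 78.0% for Cd200, 92.9% for Cd47 and 68.6% for Cd24a. The 18 macrophage genes kept a median of 0.0348%, from 0% for Aif1 to 14.4% for Mertk, a receptor for dying cells. Mean CPM in BAC depleted, as a percent of that in BAC nondepleted, was 9.74% for Sirpa, 0.742% for Cd200r1 and 0% for Cd200r4, and 863% for Cd200, 89.5% for Cd47 and 84.3% for Cd24a. There the macrophage genes kept a median of 0.00171%, up to 13.7% for Mertk.

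All 18 macrophage genes were lower in both comparisons by edgeR, against 6.06% of all genes on sorting and 19.9% on depletion. Csf1r, the receptor that keeps macrophages alive, averaged 1.05 CPM in BM sorted and 415 CPM in BM nonsorted, and 1.64 CPM in BAC depleted and 988 CPM in BAC nondepleted. Cd200r1 and Cd200r4 in BM sorted were highest in library 1, whose macrophage sum was 14.0 CPM, and lowest in library 3, whose macrophage sum was 16.0 CPM. A list of mast cell and basophil genes summed to 9.74 to 23.4 CPM in BM sorted and to 4.71 to 17.8 CPM in BM nonsorted, nearly all of it Mcpt8, with Fcer1a, Tpsb2 and Prss34 at 0 in both groups. Mcpt8 stood at 9.57, 19.5 and 23.2 CPM in BM sorted 1, 2 and 3, lowest where Cd200r1 was highest. The mast cell and basophil list summed to at most 0.223 CPM in BAC depleted and to 0 in BAC nondepleted. In the purified groups the sums were at most 0.477 CPM for 7 B cell genes, 2.37 CPM for 8 neutrophil genes and 0.0306 CPM for 7 T and NK cell genes. The part of these cells in the remaining receptor levels was not tested.

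**Figure D3:**
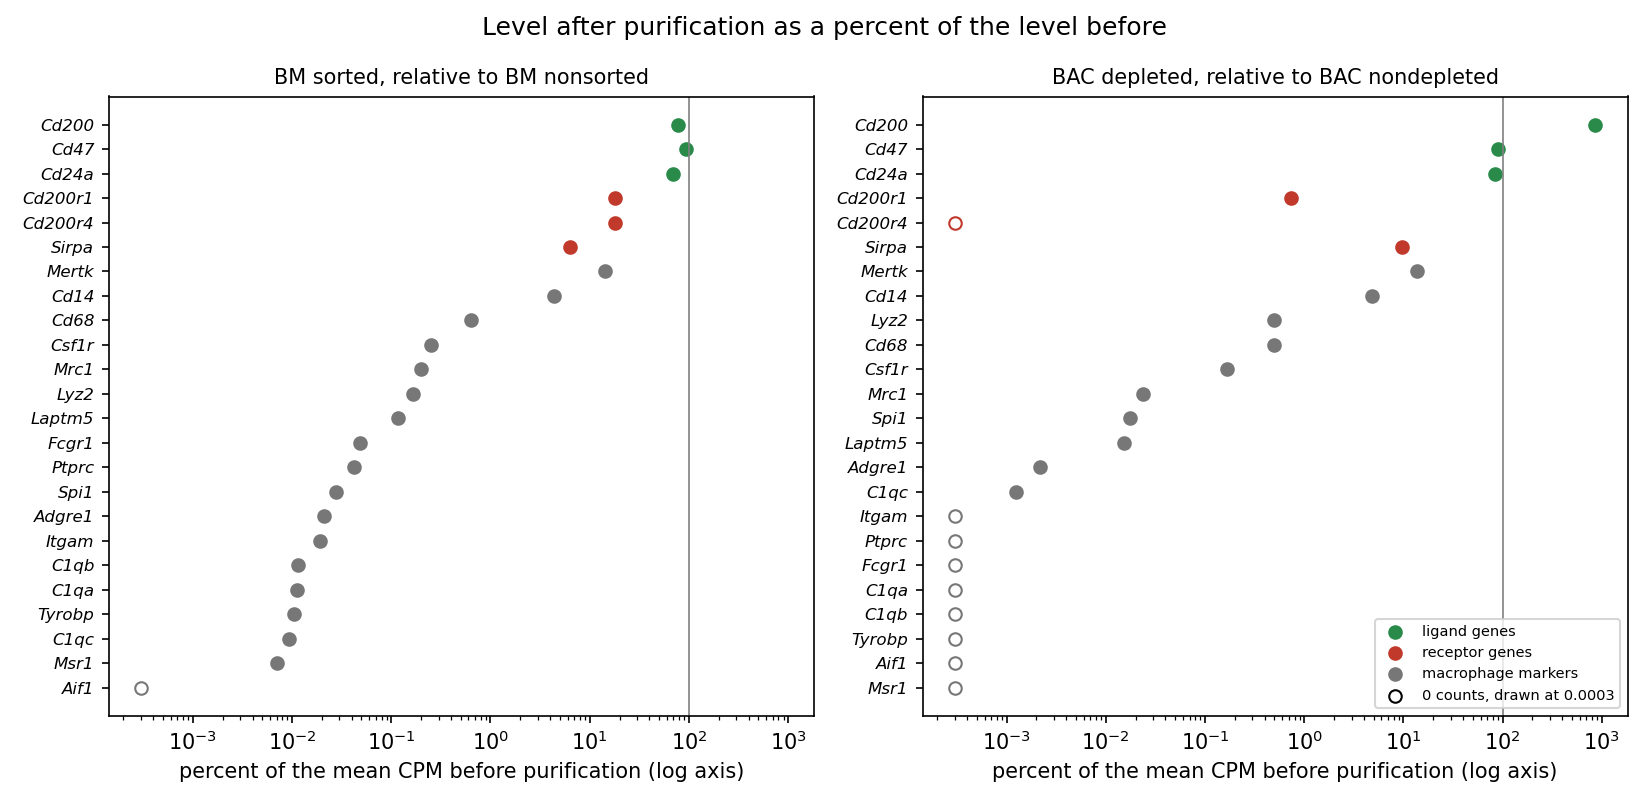
Mean CPM after purification as a percent of the mean before it, on a log axis, for the ligand genes, receptor genes and 18 macrophage genes in BM (left) and BAC (right), with open points for genes at 0 counts after purification and a line at 100%. Ligand genes lie near the line, apart from Cd200 at 863% in BAC, and Cd200r1 lies at 17.9% in BM and 0.742% in BAC.

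The purified groups were compared with each other, sorted marrow cultures against depleted bone-associated cells. Of the 6 genes 5 were called, against 47.4% of all genes. Of these 3 were higher in BM sorted, against 22.9% of all genes, and 2 were lower, against 24.6%, and 4 showed no overlap of the libraries, against 52.8%. Cd200 averaged 31.4 ± 1.92 CPM in BM sorted and 2.29 ± 2.17 CPM in BAC depleted (SD, n = 3 each), with a log2 fold change of 3.76 ± 0.80 (edgeR, adjusted p = 0.00377). Cd47 averaged 106 ± 12.6 CPM in BM sorted and 184 ± 37.3 CPM in BAC depleted, a log2 fold change of -0.79 ± 0.16 (adjusted p = 0.00243). Cd24a averaged 59.3 ± 32.1 CPM in BM sorted and 97.3 ± 51.2 CPM in BAC depleted and did not pass (-0.72 ± 0.52, 95% interval -1.93 to 0.49, adjusted p = 0.287). Of 6 cartilage genes, 3 (Col9a1, Acan and Sox9) were lower in BM sorted, against 24.6% of all genes, and 1 (Matn3) was higher, against 22.9%. Acan averaged 1.17 CPM in BM sorted and 386 CPM in BAC depleted. The part of cartilage cells in the differences between these groups was not tested.

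Of the receptor genes, Sirpa was lower in BM sorted than in BAC depleted, with a log2 fold change of -1.86 ± 0.19 (edgeR, adjusted p = 8e-05), and Cd200r1 was higher, with 3.56 ± 0.80 (adjusted p = 0.00488). Cd200r4 had 32 counts over BM sorted and 0 over BAC depleted, at least 9.32-fold higher against the floor of 3 counts (adjusted p = 0.015), although BM sorted 3 was itself at 0. Without BAC depleted 1 all 5 calls held, with log2 fold changes of 3.60 for Cd200 (adjusted p = 0.0145), -0.90 for Cd47 (0.00176), -1.85 for Sirpa (0.000256) and 3.0 for Cd200r1 (0.0159), and an adjusted p of 0.0345 for Cd200r4.

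The unpurified groups gave the same direction for both ligand genes. Between BM nonsorted and BAC nondepleted, 1 of the 6 genes was higher in BM, against 14.9% of all genes, and 2 were lower, against 16.8%. Cd200 averaged 40.2 ± 34.8 CPM in BM nonsorted and 0.265 ± 0.211 CPM in BAC nondepleted (SD, n = 3 each), with a log2 fold change of 7.23 ± 1.01 (edgeR, adjusted p = 0.00115). Cd47 averaged 114 ± 8.06 CPM in BM nonsorted and 206 ± 26.9 CPM in BAC nondepleted, a log2 fold change of -0.85 ± 0.16 (adjusted p = 0.00387). Cd24a averaged 86.4 ± 27.3 CPM in BM nonsorted and 115 ± 44.7 CPM in BAC nondepleted and did not pass (-0.42 ± 0.52, 95% interval -1.62 to 0.79, adjusted p = 0.57).

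Sirpa was lower in BM nonsorted than in BAC nondepleted, with a log2 fold change of -1.24 ± 0.19 (edgeR, adjusted p = 0.00162). Beside it, 15 of 18 macrophage genes were also lower, against 16.8% of all genes. Cd200r1 (-1.08 ± 0.60, adjusted p = 0.188) and Cd200r4 (-1.58 ± 0.75, adjusted p = 0.141) did not pass, although their libraries did not overlap, as held for 56% of all genes. With only both groups in the fit, the differences of Cd200r1 (adjusted p = 0.00181) and Cd200r4 (0.00203) passed, and that of Cd200r4 also passed without BM sorted 3 (0.00629).

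The relatives of both receptors were near or at 0 after purification. Cd200r2 and Cd200r3 held at most 3 counts in a library and were not tested. Sirpb1a, Sirpb1b and Sirpb1c, which encode receptors of the SIRP family that signal through DAP12, were at 0 counts in every library of BM sorted and BAC depleted. Against the floor of 3 counts they were at least 20.5-, 17.6- and 33.5-fold lower in BM sorted than in BM nonsorted, and at least 42.8-, 31.4- and 50.1-fold lower in BAC depleted than in BAC nondepleted. With Sirpa, all 4 genes of the family were lower by edgeR in both comparisons, against 6.06% of all genes on sorting and 19.9% on depletion.

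The signalling partners ran from genes nearly lost on purification to genes near level. Of 12 inhibitory adaptors, kinases and phosphatases tested, 7 were lower in BM sorted than in BM nonsorted and 9 were lower in BAC depleted than in BAC nondepleted, against 6.06% and 19.9% of all genes. In either comparison 0 were higher (at an unadjusted p under 0.05, 0 and 1 higher, by DESeq2 0 and 1, and 1 in BAC without BAC depleted 3). The list's median log2 fold change was -1.05 on sorting and -2.35 on depletion, beside 0.000604 and 0.0478 for all genes. Ptpn6, the SHP-1 gene, averaged 0.203 CPM in BM sorted and 39.5 CPM in BM nonsorted (-7.60 ± 0.40, adjusted p = 5.38e-07). In the bone-associated cells it averaged 0.330 CPM in BAC depleted and 84.1 CPM in BAC nondepleted (-7.93 ± 0.39, adjusted p = 2.18e-07). Inpp5d, which encodes the lipid phosphatase SHIP1, and Dok2 also fell in both. Smaller falls were called for broadly expressed genes: the adaptor gene Grb2 kept 67.2% of its mean level on sorting and 51.8% on depletion, Rasa1 kept 74.1% on sorting, and Csk, a kinase that restrains Src kinases, kept 56.8% on depletion.

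Ptpn11, the SHP-2 gene, was near level on purification. It averaged 242 CPM in BM sorted and 239 CPM in BM nonsorted (0.02 ± 0.15, edgeR adjusted p = 0.983), and 197 CPM in BAC depleted and 149 CPM in BAC nondepleted (0.40 ± 0.15, adjusted p = 0.067). Dok1 differed by compartment, with 77.3 CPM in BM sorted and 26.9 CPM in BAC depleted (1.52 ± 0.28, adjusted p = 0.0018). Between the purified groups 4 of the 12 genes were higher in BM sorted (Dok1, Csk, Dok3 and Fyb) against 22.9% of all genes, and 1, Rasa1, was lower, against 24.6%, with 2 lower without BM sorted 3 and 3 without BAC depleted 3. These 5 calls in 12 genes lay near the 47.4% of all genes called. Between the unpurified groups 2 were higher in BM nonsorted (Ptpn11 and Dok1), against 14.9% of all genes, and 6 were lower, against 16.8%, with 2 lower without BM nonsorted 2 and 3 without BAC nondepleted 1 or 2.

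Of 4 activating adaptor and kinase genes, 3 were lower on sorting, against 6.06% of all genes, and 4 on depletion, against 19.9%, by edgeR, the exception on sorting being Fcer1g (-2.93 ± 0.79, adjusted p = 0.0625). Between the purified groups 2 of the 4, Fcer1g and Syk, were higher in BM sorted, against 22.9% of all genes, and Tyrobp and Hcst did not pass. These 2 calls in 4 genes lay near the 47.4% of all genes called. Fcer1g, the activating gamma chain shared by several receptors, stood at 36.4, 7.31 and 2.39 CPM in BM sorted and at 0.413, 0.0707 and 0.0417 CPM in BAC depleted (6.32 ± 1.09, edgeR adjusted p = 0.00116). Like Cd200r1, Fcer1g was highest in BM sorted 1 and lowest in BM sorted 3. Fyb, an adaptor of haematopoietic cells from the inhibitory list, stood at 3.22, 3.18 and 3.12 CPM in BM sorted and at 0.254, 0.601 and 0 CPM in BAC depleted (3.41 ± 0.50, adjusted p = 0.000509). Syk, the kinase downstream of DAP12, averaged 33.3 CPM in BM sorted and 9.58 CPM in BAC depleted (1.80 ± 0.18, adjusted p = 7.14e-05). Tyrobp, the DAP12 gene itself, held 1 count over BM sorted and 0 over BAC depleted. It had 9464 counts in BM nonsorted and 19182 in BAC nondepleted, so it was lower by a ratio of 9240 on sorting (95% counting interval 1658 to 364994) and at least 6408-fold lower on depletion.

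**Figure D4:**
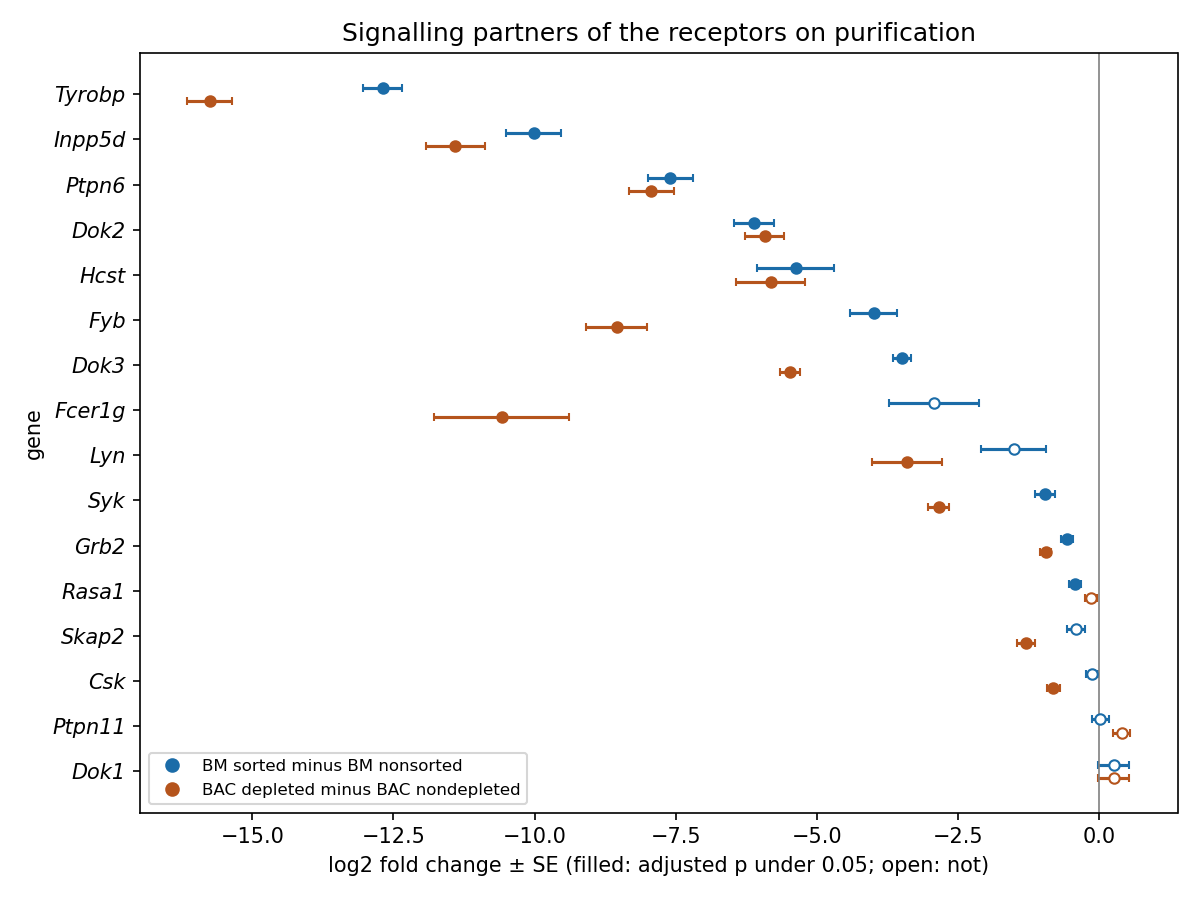
Log2 fold change ± SE of 16 signalling partners of the receptors on sorting (BM, blue) and depletion (BAC, orange), filled at an adjusted p under 0.05. Ptpn6, Inpp5d and Dok2 lie far below 0 in both, Ptpn11 and Dok1 lie near 0 in both, and the fitted values of Tyrobp and Hcst, at 0 to 2 counts after purification, depend on the prior count.

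Siglecg, the receptor gene for CD24, divided the libraries by compartment, as Cd200 did. It stood at 33.2, 83.6 and 73.6 CPM in BM sorted and at 78.7, 68.4 and 34.6 CPM in BM nonsorted. It stood at 0.445, 9.48 and 2.29 CPM in BAC depleted and at 2.01, 7.20 and 24.5 CPM in BAC nondepleted. All BM libraries lay above all BAC libraries, and purification gave no call in BM (0.07 ± 0.94, edgeR adjusted p = 0.991) or BAC (-1.46 ± 1.0, adjusted p = 0.275). It was higher in BM sorted than in BAC depleted (3.96 ± 1.08, adjusted p = 0.0127), and the difference between the unpurified groups did not pass (2.43 ± 1.0, adjusted p = 0.0887). There the count of higher Siglec genes, 0 of 4 by edgeR, was 1 at an unadjusted p under 0.05, 1 by DESeq2, and 1 without BAC depleted 1 or 2 or BAC nondepleted 3. The other tested Siglec genes, Siglec1, Cd33 and Siglece, were lower after purification in both compartments.

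Genes of other inhibitory receptors of myeloid cells were lower after purification. All 13 tested, among them Pirb, Lair1, Fcgr2b and Vsir, were lower in BM sorted than in BM nonsorted and in BAC depleted than in BAC nondepleted by edgeR, against 6.06% and 19.9% of all genes. Their median log2 fold change was -8.74 on sorting and -10.5 on depletion, beside 0.000604 and 0.0478 for all genes. These are medians of fitted values, which depend on the prior count for genes at 0 counts after purification. Those genes were Clec4a2, Fcgr2b and Vsig4 in BM sorted, and Lilrb4a, Cx3cr1, Clec12a, Clec4a2 and Vsig4 in BAC depleted. Between the purified groups 1 of the 13 was lower in BM sorted, against 24.6% of all genes, 1 was higher, against 22.9%, and 11 did not pass. Of these 11, Clec4a2 and Vsig4 were at 0 counts in every library of both groups. The lower one, Vsir, which encodes the checkpoint protein VISTA, averaged 8.54 CPM in BM sorted and 28.2 CPM in BAC depleted (-1.73 ± 0.15, adjusted p = 3.71e-05). The higher one, Clec12a, another receptor with an inhibitory motif, held 9 counts over BM sorted and 0 over BAC depleted (adjusted p = 0.00354). The count of higher genes was 2 by DESeq2 and without BM sorted 1 or BAC nondepleted 3, and 0 with only both groups in the fit.

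Of other ligand genes that act on myeloid checkpoints, 1 was higher and 1 lower on depletion. Of 6 tested, 0 were called on sorting by edgeR, 0 at an unadjusted p under 0.05 and 0 by DESeq2. The 2 calls in 6 genes on depletion lay near the 37.3% of all genes called there. On depletion Cx3cl1, the ligand of CX3CR1, was higher at 92.3 CPM in BAC depleted and 31.97 CPM in BAC nondepleted (1.53 ± 0.44, adjusted p = 0.022). B2m, the light chain of class I molecules, was lower at 565 CPM in BAC depleted and 995 CPM in BAC nondepleted (-0.82 ± 0.23, adjusted p = 0.0172). The count of 1 higher gene became 2 without BAC depleted 1 or 3 and 0 without BAC nondepleted 2 or 3, and the count of 1 lower gene became 0 without BAC nondepleted 1. Cd274, the PD-L1 gene, stood at 2.38, 35.4 and 5.50 CPM in BAC depleted and at 5.17, 2.29 and 1.75 CPM in BAC nondepleted, and did not pass on depletion (2.23 ± 0.83, adjusted p = 0.0588).

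Of genes around CD47, Itgb3 and Itgav were higher and Qpct was lower in BM than in BAC. Of 6 tested, 0 were called on sorting by edgeR (1 lower at an unadjusted p under 0.05, 0 by DESeq2, 1 lower without BAC depleted 2). On depletion 0 were called (1 higher at an unadjusted p under 0.05, 2 higher by DESeq2, 1 higher without BAC depleted 1 or 3 or BAC nondepleted 3, 1 lower without BAC depleted 2). In BM sorted against BAC depleted 2 were higher, against 22.9% of all genes, and 1 lower, against 24.6% (2 lower without BAC depleted 1), so 3 calls in 6 genes lay near the 47.4% of all genes called. BM nonsorted against BAC nondepleted gave the same counts, against 14.9% and 16.8% of all genes (0 lower without BM nonsorted 1). Itgb3, an integrin chain that associates with CD47, averaged 73.2 CPM in BM sorted and 9.20 CPM in BAC depleted (2.99 ± 0.31, adjusted p = 7.89e-05). Its partner chain Itgav averaged 474 CPM in BM sorted and 284 CPM in BAC depleted (0.74 ± 0.21, adjusted p = 0.014). Qpctl, the enzyme that modifies CD47 for SIRPα binding, averaged 17.9 CPM in BM sorted and 14.996 CPM in BAC depleted and did not pass (0.26 ± 0.12, adjusted p = 0.115), while its relative Qpct was lower in BM sorted at 6.71 CPM, against 23.2 CPM in BAC depleted (-1.79 ± 0.30, adjusted p = 0.00106).

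Genes that promote uptake of dying cells stood beside these. Of 9 receptor genes tested, Mertk, Cd36 and Stab1 were lower after purification in both compartments, against 6.06% of all genes in BM and 19.9% in BAC. On depletion 1 of the 9, Adgrb1, was higher, against 17.4% of all genes. It averaged 4.60 CPM in BAC depleted and 0.0690 CPM in BAC nondepleted (5.94 ± 1.04, edgeR adjusted p = 0.00158). The level in BAC nondepleted rests on 6 counts over the group, and BAC depleted ran from 0.833 to 9.97 CPM. The count of higher receptor genes was 2 at an unadjusted p under 0.05, 2 by DESeq2, and 1 to 2 with 1 library left out. Of 6 genes for ligands and bridging proteins, 0 were called on sorting (1 higher at an unadjusted p under 0.05, 1 higher by DESeq2 and 1 higher without BAC depleted 1 or 2). On depletion 2 of the 6 were higher, against 17.4% of all genes, and 1 was lower, against 19.9%, where 37.3% were called in either direction. Gas6, the bridge to Mertk and Axl, was higher at 5082 CPM in BAC depleted and 1502 CPM in BAC nondepleted (1.76 ± 0.55, adjusted p = 0.03), with overlapping libraries. Mfge8, a bridge to integrins, was lower at 214 CPM in BAC depleted and 559 CPM in BAC nondepleted (-1.39 ± 0.21, adjusted p = 0.000591). The higher genes of that list, Gas6 and Cx3cl1, numbered 1 without BAC depleted 2 or BAC nondepleted 1 or 2 and 0 without BAC nondepleted 3.

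Over the 12 libraries, the genes most like each member by Pearson's r of log2 CPM were found among 10609 genes with a mean of at least 5 CPM. They were Vsir (r = 0.994), Hdac9 (0.993) and Itga4 (0.99) for Sirpa. For Cd200 they were Tmem19 (0.979), Blcap (0.971) and Kctd11 (0.971), and for Cd47 Cep83os (0.968), Tbc1d9b (0.953) and Kat2b (0.951). Cd24a had the loosest neighbours, Serinc5 (0.923), Marveld1 (0.832) and Tor1b (0.827). Cd200r1 was nearest to Gltp (0.974), Galnt12 (0.968) and Ints12 (0.963), and Cd200r4 to Vps33a (0.971), Adap2 (0.966) and Cotl1 (0.965). Libraries of a group share their source, so these values describe 4 groups more than 12 separate points.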

How the data were processed

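The authors deposited raw read counts per gene symbol for 12 mouse libraries. The submitters' processing notes name GRCm39, STAR 2.7.9a, MultiQC 1.7, and featureCounts with Subread 2.0.1. The sources used here give neither annotation release nor strand setting, so reads of overlapping, antisense or near-identical genes cannot be told apart. Totals were 27937709 to 32164725 counts per library. Counts were fitted in edgeR 4.0.16 (R 4.3.3): filterByExpr, TMM, one mean per group over all 12 libraries, robust quasi-likelihood F tests, and Benjamini-Hochberg adjustment over 15698 genes with calls at an adjusted p under 0.05. The SE was taken as the fold change over the root of F, and 95% intervals follow from it. Ratios against 0 counts use a floor of 3 counts over the group, and ratios against 1 to 3 counts a 95% counting interval; both cover counting error only. The 5 contrasts were the 4 comparisons of 2 groups and the difference of the purification effects, and comparisons share libraries. Alternatives were other scalings, filters and tests (DESeq2 1.42.0), a replicate block and each library left out; for cartilage, osteoblast and macrophage counts the last was added after seeing the data. The labels do not say whether replicates came from separate animals or cultures, so p-values cover only the spread among these samples, possibly a technical one. The 6 genes and all lists were chosen with earlier results of these data known; nearest genes were the 3 with the highest r, without predicted models and pseudogenes. A listed signalling gene is not reported here, and its list's counts leave it out. The fit was tested on simulated data.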

Additional observations from a re-analysis of the deposited data

Results flagged for a closer look

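Purification effects of 2 genes differed between the compartments by the test of the difference itself. For Cd200r1 the log2 fold change on sorting minus that on depletion was 4.65 ± 1.0 (edgeR, adjusted p = 0.0232), with log2 fold changes of -2.48 in BM and -7.13 in BAC, and every purified library was below every unpurified one in both compartments. For Cd200r4 the difference was 7.95 (adjusted p = 0.0387), a fitted value that rests on 0 counts in all 3 BAC depleted libraries. The call of Cd200r1 was lost without BM sorted 2, without any one of the BM nonsorted libraries and without BAC nondepleted 1 or 2 (log2 differences of 4.55 to 4.70, adjusted p 0.0506 to 0.0622). That of Cd200r4 was lost without BM sorted 1 or 2, BAC depleted 1 or any one of the BM nonsorted or BAC nondepleted libraries (7.28 to 8.07, adjusted p 0.0521 to 0.0886). Beside both, the same difference had a median of 2.7 over 18 macrophage genes, against -0.0576 over all genes, a median of fitted values that depend on the prior count for the 8 genes at 0 in BAC depleted. Of these genes Mrc1 passed (3.10 ± 0.47, adjusted p = 0.00605), with 5 passing without BM sorted 1 and 2 without BAC depleted 1. In the lists of partners and other receptors, the difference was positive and passed for 4 of 12 inhibitory adaptor genes (Skap2, Csk, Dok3 and Fyb, with 2 to 5 when 1 library was left out), 2 of 4 activating adaptor genes (Fcer1g and Syk), 3 of 13 other inhibitory receptor genes (Clec12a, Havcr2 and Cd300a, with 1 to 3) and 1 of 9 uptake receptor genes (Stab1), against 5.08% of all genes. Clec12a, Havcr2 and Cd300a held only 9, 21 and 9 counts over BM sorted and 0, 9 and 2 over BAC depleted. The fitted difference of Clec12a thus depends on the prior count. By DESeq2, 4 of the other inhibitory receptor genes were higher and 1 lower, and 1 uptake receptor gene was higher and 2 lower. The difference passed for 0 of 4 SIRP genes, Sirpa among them (1 lower at an unadjusted p under 0.05), and 0 of 6 genes around CD47. It passed for 0 of 4 Siglec genes (1 higher by DESeq2, 0 to 1 higher with 1 library left out). Fcer1g differed by 7.66 ± 1.33 (adjusted p = 0.0102), Fyb by 4.55 ± 0.62 (0.0041) and Syk by 1.88 ± 0.25 (0.00343), whereas Ptpn6 differed by 0.33 ± 0.57 (0.765). The part of the macrophage genes in these differences was not tested.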

How the results depend on the processing

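Of 593 values of the 6 genes under the alternatives, 544 kept their direction and their side of the threshold, and the others are given here or with the results. Of 72 group levels under other scalings 1 moved, Sirpa in BM nonsorted, at 382.8 CPM with library totals unscaled. Of 1980 counts of called genes per list, 1841 stayed within 1.5 times. On sorting, Cd200r1 was lost with upper quartile scaling (-2.39), no low-count filter (-2.44) and only the groups compared (-2.48), and ranged from -3.05 to -1.99 when 1 library was left out; Cd200r4 was called by DESeq2 (-2.47) and ranged from -3.15 to -1.89; Cd200 ranged from -0.69 to 0.64. On depletion, Cd200 was lost with no filter (3.07) and only the groups compared (3.12) and ranged from 2.08 to 3.96, and Cd24a from -0.66 to 0.10. Between the unpurified groups, only the groups compared gave -1.06 for Cd200r1 and -1.56 for Cd200r4, which ranged from -1.71 to -1.50. For the difference of the effects, DESeq2 called Cd200 (-3.46), no filter lost Cd200r1 (4.73), and with 1 library left out Cd200 ranged from -4.33 to -2.44, Cd47 from -0.057 to 0.23, Cd24a from -0.66 to 0.12, Cd200r1 from 4.08 to 5.56 and Cd200r4 from 7.28 to 8.53. The cause was not tested.

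Counts of all genes moved too. Genes higher on sorting numbered 26, and 63 with upper quartile scaling, 155 by DESeq2, 118 with only the groups compared and 6 to 67 with 1 library left out. On depletion, only the groups compared gave 1476 higher and 2080 lower, against 2735 and 3128. Between the unpurified groups, 2339 higher and 2641 lower became 1366 to 2897 and 1543 to 3157 with 1 library left out. For the difference, 797 higher and 469 lower became 1367 and 1083 by DESeq2, 244 lower with no filter, and 328 to 1020 higher and 109 to 688 lower with 1 library left out.

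The labels give the groups the same replicate numbers. Correlations of deviations ran from -0.193 to 0.262 for 18 same-numbered pairs and from -0.328 to 0.258 for 36 others over 5000 genes. Of 36 library matches, 14 were best with their own number. These values showed no clear pairing by number, but with so few libraries they cannot exclude it. With the replicate block, Cd200r1 on sorting was -2.59 (adjusted p = 0.089), and the differences were 4.51 for Cd200r1 (0.0571) and 7.90 for Cd200r4 (0.0827), with 511 genes higher and 297 lower; no other call of the 6 genes changed. At this depth, levels of Cd200 in BAC nondepleted and of Cd200r1 and Cd200r4 after depletion rest on 0 to 14 counts a library.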
